A study of Homo sapiens with 8 samples.

Results

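The genes that make, bind, organise and cleave hyaluronan were followed in normal fibroblasts exposed to the secretome of senescent cells. They were chosen by name and comprise the synthases HAS1, HAS2 and HAS3, the receptor CD44, the matrix organisers VCAN and TNFAIP6, and the hyaluronidase HYAL2. Of these 7 genes, 6 were found among the 27696 genes counted, and all 6 passed the filter on low counts that left 13798 genes for testing. HAS1 was not analysed here. The recipient cells were IMR90, a strain of primary human fetal lung fibroblasts, so every library comes from a single genetic background. For 3 days they received conditioned medium from ER:RAS fibroblasts of the same strain, which carry a RAS oncogene fused to the estrogen receptor that is switched on by 4-hydroxytamoxifen (4-OHT). That medium was collected at day 0, 4, 7 or 10 of 4-OHT, and the recipient fibroblasts are designated D0, D4, D7 and D10. The donors of D0 medium carried the same construct, so the groups differ in how long the donors had been induced. No library had medium from donors kept without 4-OHT for 4, 7 or 10 days. Exposure to 4-OHT and time in culture therefore cannot be told apart from induction. Each group holds 2 libraries, 1 from each of 2 independent experiments, which makes 8 libraries in all.

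Hyaluronan is a long unbranched sugar polymer of the extracellular matrix, built from glucuronic acid and N-acetylglucosamine. HAS enzymes assemble it from UDP-sugars at the plasma membrane and extrude it as it grows, and CD44 holds it at the cell surface. Versican, a large chondroitin sulfate proteoglycan encoded by VCAN, and TNFAIP6 (TSG-6), a secreted protein that transfers the heavy chains of inter-alpha-inhibitor onto hyaluronan, gather the polymer into pericellular coats and cables, while HYAL2 cleaves it into fragments. In fibroblasts this matrix is remodelled in wound repair, inflammation and myofibroblast differentiation.

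Library totals ranged from 11708193 to 13395912 counts. All 9 fibroblast markers examined passed the filter, and their summed level lay between 30284 and 46796 CPM (counts relative to library size, scaled by the TMM method) in 7 libraries. D10 of experiment 2 stood apart, with 10060 CPM and the lowest total count. COL1A1 and COL1A2, the largest parts of the sum in the other 7 libraries, were at 1295 and 2862 CPM there. In those 7 libraries they were at 8694 or more and at 10121 or more. Of the other markers, LUM at 258 CPM and PDGFRA at 427 CPM were not at their lowest in D10 of experiment 2, while the rest were. The paper reports lower collagen expression in fibroblasts given senescent medium, so part of this sum may itself respond to the medium. Whether the low sum is such a response or a trait of that library was not tested. The 4 epithelial markers summed to between 20.0 and 32.0 CPM, nearly all of it from KRT8, the 4 endothelial markers to between 1.12 and 3.90 CPM, and 3 of 4 leukocyte markers to between 0.946 and 2.93 CPM, and none of these markers was at 0 in every library. Among the defining markers, EPCAM had 3 to 7 counts and PTPRC 0 or 1. Across all genes tested, 34.8% differed between the experiments at an adjusted p under 0.05 (edgeR with the experiment as a term). Fitted changes that rest on D10 of experiment 2 are therefore given with and without it. A lower level in these bulk libraries can reflect fewer expressing cells or less RNA per cell, which cannot be told apart.

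To compare the genes with each other, CPM were divided by the length of each gene's merged exons. CD44 was the most abundant in every group, at 382 ± 55.0 CPM per kb in D0 and 307 ± 125 in D10 (mean ± SD, n = 2 throughout). HYAL2 followed at 15.1 ± 1.36 CPM per kb in D0 and VCAN at 10.7 ± 0.304. The synthases were far lower, with HAS3 at 0.214 ± 0.0109 CPM per kb and HAS2 at 0.180 ± 0.114 in D0, and the level of TNFAIP6 there was 0.531 ± 0.226. HAS2 and HAS3 did not differ beyond their spread in D0, since the 2 HAS2 values lay on either side of the HAS3 values. The values of HAS2 and TNFAIP6 overlapped in D4, at 0.723 ± 0.211 and 0.548 ± 0.427 CPM per kb, with HAS2 the higher within each library. Between HYAL2 and VCAN the order held in every library except D7 of experiment 2, where VCAN was at 15.6 and HYAL2 at 15.5 CPM per kb. TNFAIP6 moved furthest in this order, reaching 18.8 CPM per kb in D10 of experiment 2 against 0.246 to 0.850 in the other 7 libraries.

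**Figure D1:**
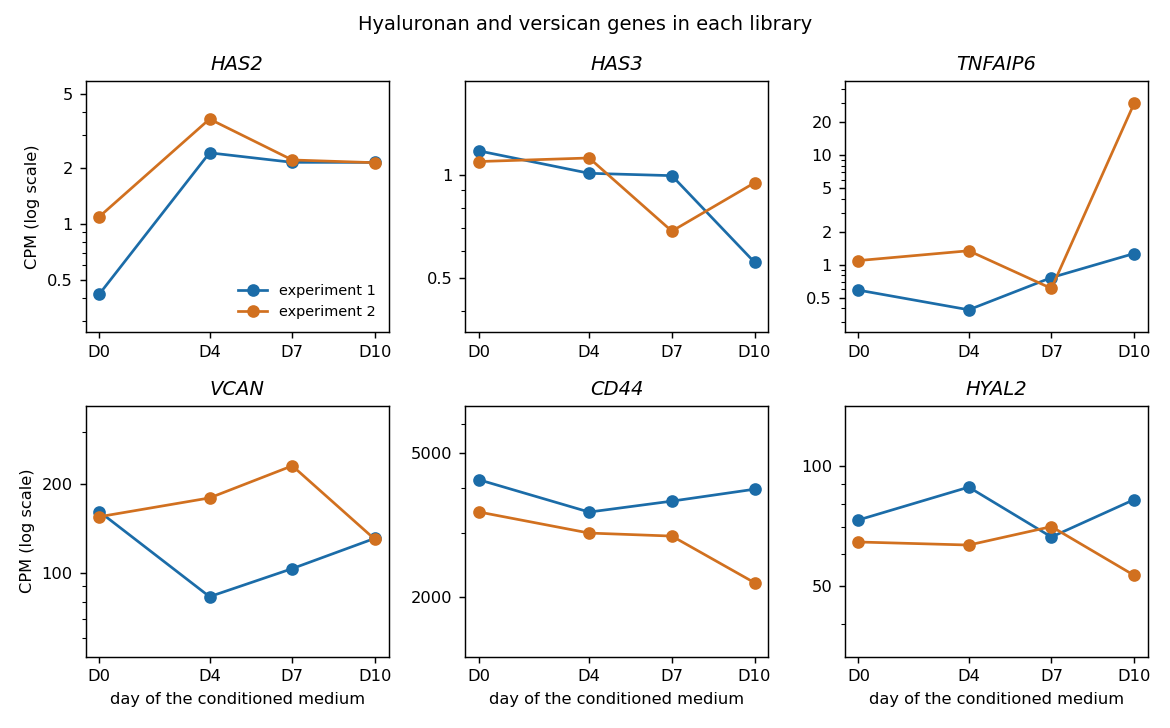
CPM (log axis) of HAS2, HAS3, TNFAIP6, VCAN, CD44 and HYAL2 in each of the 8 libraries against the day of the conditioned medium, with 1 line for each experiment. HAS2 lies between 2.13 and 3.65 CPM in all D4, D7 and D10 libraries against 0.419 and 1.09 in D0, and TNFAIP6 reaches 29.7 CPM only in D10 of experiment 2.

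Next, each day of conditioned medium was compared with D0, which addresses whether the genes respond to the early or the late senescent secretome. None of the 6 genes passed an adjusted p of 0.05 on any of the 3 days in edgeR's quasi-likelihood test, where 0%, 0% and 0.29% of all tested genes did. At an unadjusted p under 0.05 the same test gave 1 of the 6 with D4 medium, 1 with D7 medium and 2 with D10 medium, against 2.96%, 4.34% and 7.94% of all tested genes. These were HAS2 on each day and TNFAIP6 at D10. With the experiment as a block, 0 of the 6 passed on any day, against 0.275%, 1.25% and 4.99% of all genes, and DESeq2 called 0, 0 and 1, TNFAIP6 at D10, against 0.354%, 0.848% and 2.83%. The median log2 change of the 6 genes was -0.026 with D4, -0.11 with D7 and -0.15 with D10 medium, beside 0.0088, -4.13e-04 and 0.0037 over all genes tested. The 3 comparisons share the D0 libraries.

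**Figure D2:**
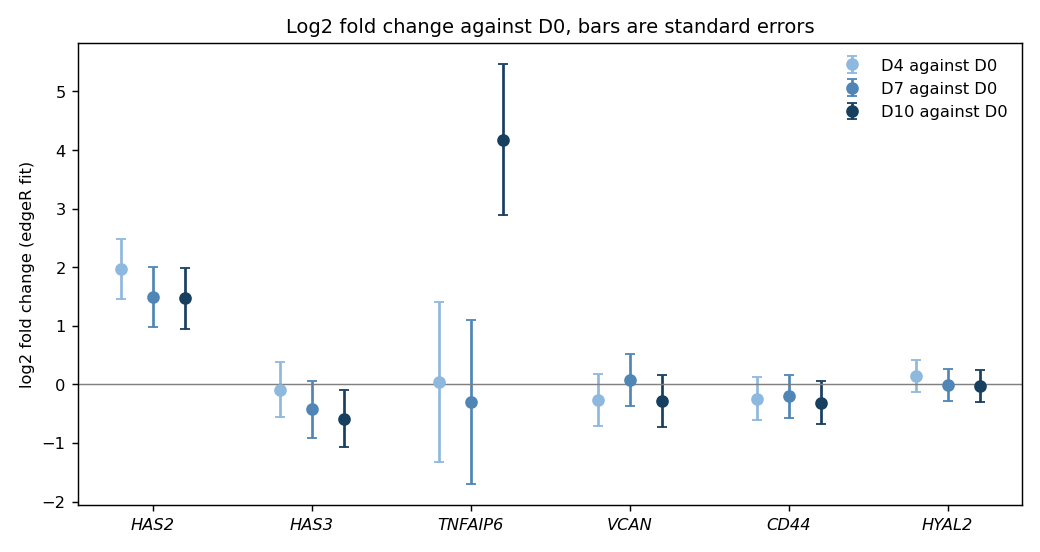
Log2 fold change of each gene at D4, D7 and D10 against D0 from the edgeR fit to all 8 libraries, with bars for the standard error. HAS2 lies at 1.97, 1.49 and 1.47 and TNFAIP6 at 4.18 on D10, while the other 4 genes lie between -0.59 and 0.14 on every day.

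HAS2, which makes long hyaluronan chains and is the main synthase of many fibroblasts, lay above both D0 libraries with all 3 senescent media. It is annotated at chr8:121612116-121641390 on the minus strand (GRCh38, identifier ENSG00000170961.6) with 1 transcript of 4190 exon bases. The D0 libraries held 5 HAS2 counts in experiment 1 and 15 in experiment 2, which correspond to 0.419 and 1.09 CPM. The D4 libraries held 31 and 49 counts, or 2.41 and 3.65 CPM. At D7 there were 28 and 29 counts, or 2.14 and 2.20 CPM, and at D10 there were 27 in each, or 2.14 and 2.13 CPM. All 6 libraries from senescent medium thus lay above both D0 libraries, an arrangement shared by 3.18% of the tested genes. Within experiment 1 the D4, D7 and D10 levels were 5.74, 5.10 and 5.10 times that of D0, with a 95% exact interval of 2.21 to 18.9 at D4. In experiment 2 the ratios were 3.35, 2.02 and 1.95, with intervals of 1.85 to 6.42 at D4 and 1.00 to 3.94 at D10. These intervals cover counting error only. The experiments therefore share the direction on every day, and the smaller ratios of experiment 2 go with its higher D0 level.

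The fitted log2 change of HAS2 was 1.97 at D4 (SE 0.51, 95% interval 0.80 to 3.15), 1.49 at D7 (SE 0.51) and 1.47 at D10 (SE 0.51). The edgeR p was 0.00483 at D4, 0.0199 at D7 and 0.0217 at D10 before adjustment, and 0.900, 0.852 and 0.430 after it. Over the alternatives the adjusted p of the D4 change ran from 0.126, with the replicate block, to 1. Without D0 of experiment 1, the library with 5 counts, the log2 changes became 1.47, 0.98 and 0.96, and without D0 of experiment 2 they became 2.83, 2.35 and 2.32. The mean of D4, D7 and D10 against D0, a comparison chosen after the levels were seen, gave 1.64 (SE 0.45, edgeR p 0.0065, adjusted p 0.327), and 1.67 with the block (edgeR adjusted p 0.0564), where 0.109% and 2.97% of all genes passed. D10 was below D4 in both experiments, at 0.889 and 0.583 times its level, with a fitted difference of -0.50 (95% interval -1.59 to 0.58) that did not pass the edgeR test (adjusted p 0.974). HAS2 thus stood at its highest level in D4 in each experiment, although the fitted difference from D10 was within its error.

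HAS3 (ENSG00000103044.10, chr16:69105564-69118719, plus strand), a synthase that in cultured cells tends to make shorter chains, showed no such shift. Its counts were 14 and 15 in D0, 13 and 15 in D4, 13 and 9 in D7, and 7 and 12 in D10, for experiments 1 and 2. The group means were 1.13 ± 0.0575, 1.06 ± 0.0775, 0.838 ± 0.219 and 0.750 ± 0.277 CPM. Its log2 change was -0.088 at D4, -0.43 at D7 and -0.59 at D10 (edgeR adjusted p 1, 1 and 0.998), and the 95% interval at D10, -1.72 to 0.54, includes changes of either sign. The D10 change was -1.02 without D10 of experiment 2 and -0.24 without D10 of experiment 1, and the D7 change was -0.72 without D7 of experiment 1 and -0.18 without D7 of experiment 2. At 7 to 15 counts per library, none of these changes passed.

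The balance between the synthases was expressed as the share of HAS2 in the sum of HAS2 and HAS3 per kb of exon. HAS2 held 31.1% of this sum in D0 of experiment 1 (95% exact binomial interval 11.3 to 57.0%) and 55.8% in D0 of experiment 2 (36.5 to 73.5%). In D4 the shares were 75.1% and 80.5%, in D7 73.1% and 80.3%, and in D10 83.0% and 74.0%. All 6 shares after senescent medium lay above both D0 shares, although the interval of every one of them overlaps that of D0 in experiment 2. The shares use the same counts as the levels given above, so this order is not a separate result. Within experiment 1 the intervals at D4 (60.5 to 86.2%), D7 (57.7 to 85.1%) and D10 (67.4 to 93.0%) lay above that of its own D0. Within experiment 2 none did, and these intervals cover counting error only. Part of the annotated exons of each synthase is shared with a gene on the opposite strand, 4.8% for HAS2 with HAS2-AS1 and 6.9% for HAS3 with CHTF8. HAS2-AS1, an antisense transcript of the HAS2 locus, had 1 to 12 counts per library, with 8 and 12 in D7 and 3 and 1 in D0, and did not pass the filter. The strand setting of the counting is not given in the sources used here, so reads of the overlapping stretch may belong to either gene.

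**Figure D3:**
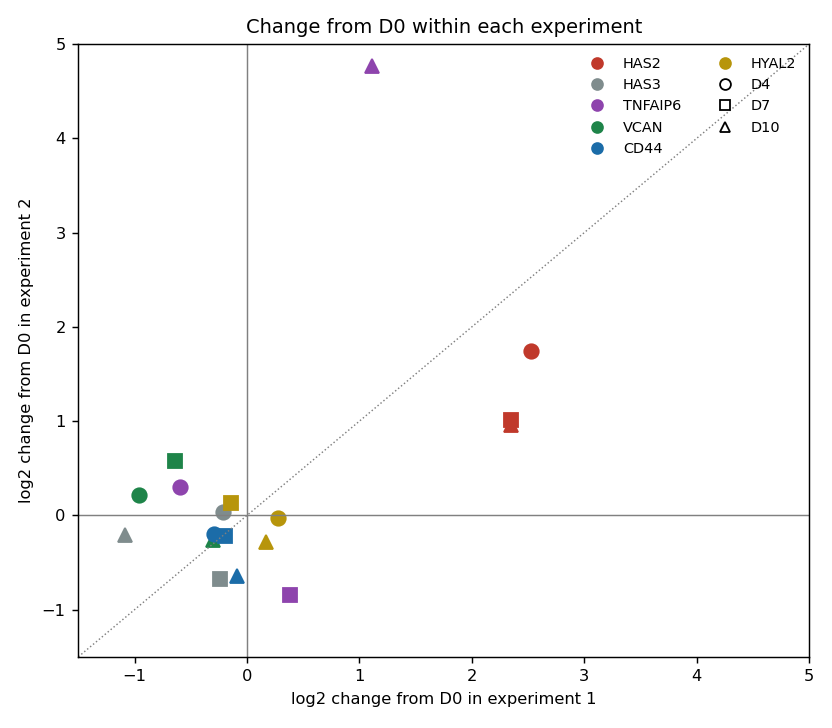
Log2 change from D0 within experiment 1 (horizontal axis) and within experiment 2 (vertical axis) for each gene (colour) and day (shape). The dotted line marks equal changes. The 3 HAS2 points lie to the upper right, at 2.52 and 1.74 for D4, TNFAIP6 at D10 lies at 1.11 and 4.77, and the D4 and D7 points of VCAN lie in the quadrant where the experiments move in opposite directions.

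CD44, the principal surface receptor for hyaluronan and also a ligand-binding anchor for the cortical cytoskeleton, stayed the most abundant gene of the group. It is annotated at chr11:35138870-35232402 on the plus strand (ENSG00000026508.17) with 39 transcripts, and the counts do not separate its splice forms. In experiment 1 its level was 4207 CPM in D0, 3426 in D4, 3673 in D7 and 3961 in D10. In experiment 2 it was 3428, 2999, 2942 and 2188 CPM. Experiment 2 was thus the lower in every group and descended at each step, as 7.08% of tested genes did in that experiment, whereas experiment 1 had its lowest value in D4 and came back towards its D0 level. The fitted log2 change was -0.25 at D4, -0.21 at D7 and -0.31 at D10 (edgeR adjusted p 1, 1 and 0.998), with a 95% interval at D10 of -1.16 to 0.54. Counting error is negligible for CD44, with 27741 to 50204 counts per library. The width of this interval thus comes from the spread between libraries, which includes the offset between the experiments. With the replicate block the D10 change was -0.35 (SE 0.24, edgeR adjusted p 0.501). CD44 was below D0 in both experiments on each day, as 28.9%, 31% and 32.3% of the tested genes were at D4, D7 and D10. The fitted D10 change was 0.054 without D10 of experiment 2 and -0.78 without D10 of experiment 1. These fits have no block and set the remaining D10 library against both D0 libraries, so the offset between the experiments enters them. CD44 was at 0.942 times its D0 level at D10 in experiment 1 and at 0.638 times in experiment 2. The latter is the library with the lowest summed fibroblast markers, and the part of that library's difference in the CD44 value was not tested.

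TNFAIP6, a hyaluronan-binding protein known as a target of inflammatory cytokines, had the largest change of the group, in 1 library. It is annotated at chr2:151357592-151380048 on the plus strand (ENSG00000123610.4), and its exons overlap no other annotated gene. In D0 it had 7 counts in experiment 1 and 15 in experiment 2, in D4 5 and 18, and in D7 10 and 8, so that these 6 libraries all lay between 0.388 and 1.34 CPM. At D10 it had 16 counts in experiment 1 and 377 in experiment 2, which are 1.27 and 29.7 CPM. D10 of experiment 2 thus stood far above all others, while D10 of experiment 1 lay within the range of the earlier days. Relative to D0 of the same experiment, the D10 level was 2.16 times in experiment 1 (95% exact interval 0.841 to 6.21) and 27.2 times in experiment 2 (16.3 to 49.1). Both D10 libraries were above both D0 libraries, which was so for 15% of the tested genes.

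The fitted D10 change of TNFAIP6 was 4.18 on the log2 scale (SE 1.28, 95% interval 1.22 to 7.14), with an edgeR p of 0.0117 and an adjusted p of 0.308. Its test depended on the method, with an adjusted p of 0.0536 with the replicate block, 0.00316 in DESeq2 and 0.0023 in edgeR with no filter on low counts, a setting that called 1.34% of all genes, and a range of 0.0023 to 1.00 over all alternatives. Without D10 of experiment 2 the change was 0.58 (edgeR adjusted p 1.00), and without D10 of experiment 1 it was 5.13 (edgeR adjusted p 0.0176, where the remaining D10 library is assumed to vary like the other groups). D10 against D4, which does not use the D0 libraries, gave 4.14 (SE 1.28, edgeR adjusted p 0.558, DESeq2 adjusted p 0.0087) and 0.54 without D10 of experiment 2. None of the 6 genes passed in that comparison in edgeR or with the block, where 0.00725% and 2.55% of all genes did, and TNFAIP6 alone passed in DESeq2, where 1.14% did. At D4 and D7 the log2 changes were 0.037 and -0.30, with standard errors of 1.36 and 1.40. Experiment 2 was at 1.86 times experiment 1 in D0, 3.46 times in D4, 0.795 times in D7 and 23.5 times in D10, so the experiments were furthest apart in D10. D10 of experiment 2 also had the lowest summed fibroblast markers and the lowest level of PTX3, a pentraxin that works with TNFAIP6 in organising hyaluronan, at 267 CPM against 644 to 1241 in the others. PTX3 was named after its values were seen, and the part of the library's difference in the TNFAIP6 value was not tested.

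The promoters of TNFAIP6, which had the largest fitted change, and CD44, which had the highest level, are shown beside each other, from 250 bases before to 50 bases after the RefSeq start site (GRCh38.p14, 5′ to 3′ along the gene's strand). Of the 6 genes analysed, RefSeq promoters were at hand for HAS3, CD44, TNFAIP6, VCAN and HYAL2. Capitals mark matches to the motifs searched, which were the kappaB site of NF-κB, the AP-1 site TGANTCA, the C/EBP-type site TTNNGNAA and the GC box GGGCGG on both strands, and the TATA box TATAAA on the gene's strand.
TNFAIP6 promoter, chr2:151357342-151357641, plus strand: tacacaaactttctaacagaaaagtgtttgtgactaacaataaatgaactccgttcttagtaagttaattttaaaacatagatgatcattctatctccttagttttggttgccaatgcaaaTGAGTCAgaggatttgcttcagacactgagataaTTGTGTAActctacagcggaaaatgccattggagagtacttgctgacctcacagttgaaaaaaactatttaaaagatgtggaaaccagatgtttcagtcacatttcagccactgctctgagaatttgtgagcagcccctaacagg
CD44 promoter, chr11:35138921-35139220, plus strand: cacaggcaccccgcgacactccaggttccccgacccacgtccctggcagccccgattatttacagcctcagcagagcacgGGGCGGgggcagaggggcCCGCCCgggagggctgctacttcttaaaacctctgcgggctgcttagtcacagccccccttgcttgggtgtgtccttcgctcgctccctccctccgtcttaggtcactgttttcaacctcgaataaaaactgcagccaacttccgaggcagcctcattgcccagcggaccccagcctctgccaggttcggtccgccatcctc

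The TNFAIP6 window holds an AP-1 match, TGAGTCA, that begins 129 bases before the start site and a C/EBP-type match, TTGTGTAA, that begins 95 bases before it, and these do not overlap. Among 35116 promoters of the same length, 7.71% hold an AP-1 match and 36.8% a C/EBP-type match. The CD44 window holds 2 GC boxes, at 170 and 152 bases before its start site, and 45% of promoters hold at least 1. HAS3 and VCAN each have 1 GC box and HYAL2 none, and TNFAIP6 was the only one of the 5 with an AP-1 or C/EBP-type match. The windows of all 5 lacked kappaB and TATA letters, which 11.3% and 7.33% of promoters have. TNFAIP6 also differs in base composition, with 37% G and C against 60.3% to 67% in the other 4. These matches describe the letters of these windows and were not tested for binding.

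VCAN, the versican gene, behaved differently in the 2 experiments. It is annotated at chr5:83471465-83582303 on the plus strand (ENSG00000038427.15) with 12 transcripts, and the counts pool isoforms that differ in the number of chondroitin sulfate attachment regions. In experiment 1 its level was 162 CPM in D0, 83.1 in D4, 103 in D7 and 131 in D10. In experiment 2 it was 155, 180, 231 and 130 CPM. The experiments began and ended at nearly the same level, with a ratio of experiment 2 to experiment 1 of 0.961 in D0 and 0.991 in D10, and stood apart in between, with ratios of 2.16 in D4 and 2.23 in D7. Relative to D0, D4 was at 0.514 times in experiment 1 (95% exact interval 0.477 to 0.554) and at 1.16 times in experiment 2 (1.09 to 1.23). D7 was at 0.640 and 1.49 times, and D10 at 0.812 and 0.837 times. VCAN thus moved in opposite directions at D4 and D7, as 41.3% and 37.7% of the tested genes did, and in the same direction at D10.

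The group fit averages these courses, and gave VCAN -0.27 in D4, 0.079 in D7 and -0.28 in D10 on the log2 scale (edgeR adjusted p 1, 1 and 0.998). Its group means were 158 ± 4.51, 131 ± 68.4, 167 ± 90.3 and 131 ± 0.848 CPM. Leaving out 1 of the D7 libraries moved the D7 change to 0.55 or -0.61. The difference between the experiments in the change with senescent medium, with D4, D7 and D10 pooled, was tested as an interaction after the pattern was seen. It was 0.83 on the log2 scale (SE 0.49, edgeR p 0.127, adjusted p 1.00) and did not pass. That test called 0% of all genes and had 0.442% of them at an unadjusted p under 0.05. Since it pools D10, where the experiments moved in the same direction, it cannot decide on a split at D4 and D7 alone. The D10 change had a 95% interval of -1.30 to 0.74. Of VCAN's exon bases 3.05% overlap VCAN-AS1 on the opposite strand, which had 0 or 1 counts in every library.

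HYAL2, a hyaluronidase anchored at the cell surface that cuts long hyaluronan into intermediate fragments, had the smallest fitted changes of the group at D7 and at D10. It lies at chr3:50317790-50322906 on the minus strand (ENSG00000068001.13). Its levels were 73.1 and 64.3 CPM in D0, 88.3 and 63.2 in D4, 66.2 and 70.3 in D7, and 82.2 and 53.1 in D10. The groups overlapped throughout, and the log2 changes were 0.14, -0.0090 and -0.023 with a standard error of 0.27 each (edgeR adjusted p 1, 1 and 0.998). The experiments differed in direction on each day. For experiments 1 and 2, the levels were 1.21 and 0.983 times D0 at D4, 0.906 and 1.09 times at D7, and 1.12 and 0.825 times at D10. Opposite directions were seen for 41.3%, 37.7% and 36.6% of the tested genes on these days. Of the HYAL2 exon bases 11.2% overlap TUSC2 on the same strand, so some reads cannot be assigned to either gene with certainty.

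It was then asked whether the levels followed the day of the medium, with 1 slope over days 0, 4, 7 and 10. None of the 6 slopes passed in edgeR, where 1.18% of all genes did, and 1 of 6 had an unadjusted p under 0.05, against 9.76% of all genes. This was TNFAIP6, at 0.45 log2 units per day (edgeR p 0.00781, adjusted p 0.201), and its slope was 0.027 without D10 of experiment 2. HAS2 had a slope of 0.10 per day (edgeR adjusted p 0.819), with its highest level in D4, and the slope was 0.028 without D0 of experiment 1. The remaining slopes were -0.062 for HAS3, -0.028 for CD44, -0.015 for VCAN and -0.0056 for HYAL2. Without D10 of experiment 1 the CD44 slope was -0.058 and without D10 of experiment 2 it was -0.0045. Without the same libraries HYAL2 had -0.025 and 0.015. VCAN had -0.032 without D7 of experiment 2 and -0.0067 without D7 of experiment 1, and HAS3 had -0.039 without D10 of experiment 1. With the block 0 of 6 slopes passed, and with DESeq2 0 of 6, against 4.3% and 3.58% of all genes.

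The wider hyaluronan and versican system was examined with lists of other genes. Of these, 59 were found among the genes counted and 41 passed the filter, and listed genes that were not found were not analysed here. At D10, 0 were higher and 1 was lower by edgeR, against 0.196% and 0.0942% of all genes, and 3 were higher and 4 lower with the replicate block, against 2.54% and 2.45%. DESeq2 gave 2 higher and 2 lower, against 1.58% and 1.25%. At D4 and D7 edgeR called none. The block gave 0 higher and 1 lower at D4, against 0.087% and 0.188% of all genes, and 0 higher and 3 lower at D7, against 0.507% and 0.739%. DESeq2 gave 0 higher and 2 lower at D4, against 0.166% and 0.188%, and 0 higher and 4 lower at D7, against 0.399% and 0.449%. Before adjustment, edgeR gave 1 higher and 5 lower genes with a p under 0.05 at D4, against 1.28% and 1.68% of all genes, and 2 higher and 6 lower at D7, against 1.91% and 2.44%. The median log2 change of the 41 was 0.035 with D4, 0.067 with D7 and -0.075 with D10 medium. The 18 genes left out by the filter had at most 10 counts in any library and include the hyaluronan receptors LYVE1, TLR2 and TLR4 and every hyalectan other than VCAN that was counted.

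Among versican-cleaving ADAMTS proteases, 1 of 4 tested was lower at D10 in edgeR, where 0.0942% of all genes were. With the block or by DESeq2 it was 2 of 4, against 2.45% and 1.25% of all genes. ADAMTS15 was at 13.8 and 10.9 CPM in D0, 4.73 and 4.70 in D4, 2.67 and 2.35 in D7, and 1.82 and 1.81 in D10. It was thus lower with each later medium in both experiments, as 5.95% and 7.08% of the tested genes were in experiments 1 and 2. Its log2 change at D10 was -2.76 (SE 0.31, edgeR adjusted p 0.0226), and its slope over the day also passed (edgeR adjusted p 0.00213). The slope passed without each library in turn, with an adjusted p of at most 0.0236, whereas the D10 call held only without D10 of experiment 1 (edgeR adjusted p 0.0356) and had an adjusted p of 0.0532 to 0.177 without each of the others. ADAMTS1, an abundant member, went from 821 ± 15.5 CPM in D0 to 313 ± 22.2, 363 ± 40.3 and 428 ± 14.4. Its D10 log2 change of -0.94 passed only with the block (edgeR adjusted p 0.158, with the block 0.0157) and in DESeq2 (adjusted p 0.00306). Its changes at D4 and D7, -1.39 and -1.18, passed with the block (edgeR adjusted p 0.0197 and 0.0192) and in DESeq2 (adjusted p 8.09e-06 and 2.12e-04). They did not pass in edgeR without the block (adjusted p 0.739 and 0.307). ADAMTS5 was at 65.9 and 82.0 CPM in D0, 22.6 ± 2.31 in D4, 17.6 ± 8.31 in D7, and 22.2 and 92.5 in D10, so that at D10 only experiment 1 was below its D0 level.

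Chondroitin sulfate chain synthesis, which builds the side chains of versican, had 13 tested genes. At D10, 0 passed in edgeR, 3 were higher with the block and 2 by DESeq2, against 0.29%, 2.54% and 1.58% of all genes. CHST11, a chondroitin 4-O-sulfotransferase, was at 1.26 and 2.04 CPM in D0, 3.34 and 4.55 in D4, 4.76 ± 0.788 in D7, and 7.60 and 6.39 in D10. Its log2 change at D10 was 2.07 (SE 0.38, edgeR adjusted p 0.0793, with the block 0.0075), and its slope passed (edgeR adjusted p 0.0314, and 0.0316 to 0.134 without each library in turn, where it passed only without D4 of experiment 2). CSGALNACT1 and CSGALNACT2, which add N-acetylgalactosamine to the growing chain, had D10 log2 changes of 1.06 and 0.87 and passed with the block (edgeR adjusted p with the block 0.0178 and 0.0242). CSGALNACT1, CSGALNACT2, ADAMTS1 and ADAMTS5 were named after their values were seen.

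**Figure D4:**
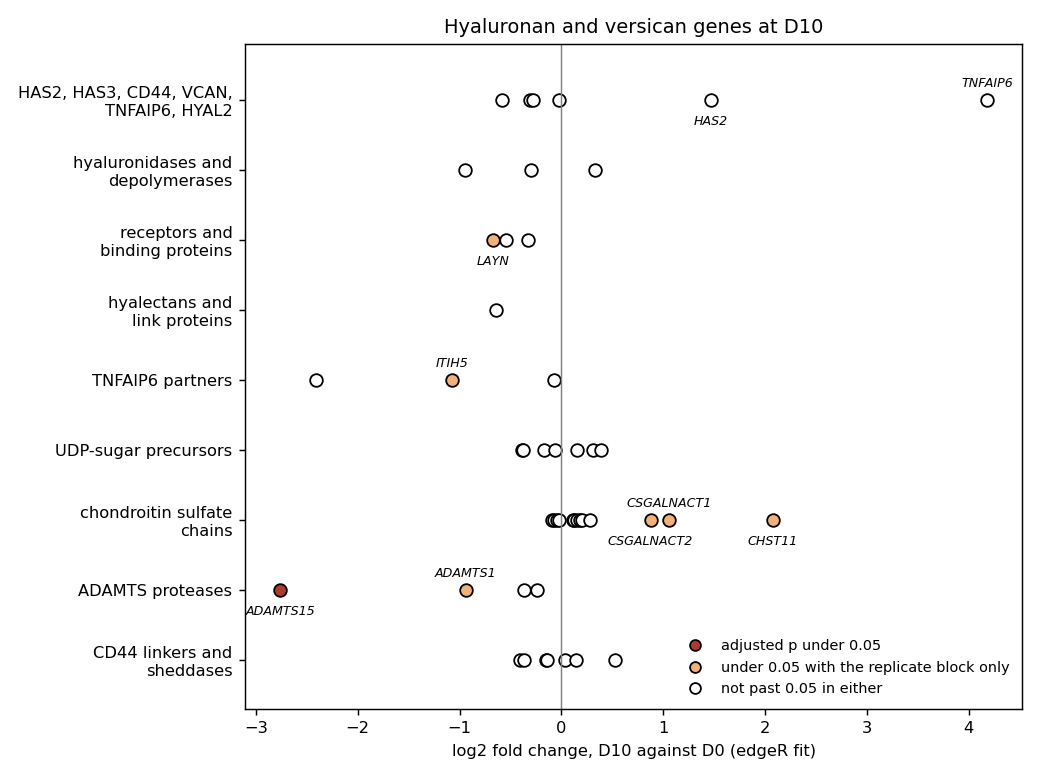
Log2 fold change at D10 against D0 (edgeR fit) of the 6 genes and of 41 other tested genes of the hyaluronan and versican system, in rows by role, with fill for an adjusted p under 0.05 in edgeR (dark), in edgeR with the replicate block only (light) or in neither (open). ADAMTS15 at -2.76 is the only dark point, and CHST11 at 2.07 is the highest of the light points.

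Other enzymes and proteins that act directly on hyaluronan were examined next. CEMIP, a hyaluronan depolymerase of fibroblasts, was at 1256 and 2261 CPM in D0, 427 and 798 in D4, 643 and 824 in D7, and 884 and 935 in D10. Every later library was therefore below both D0 libraries, as for 4.74% of the tested genes, but the log2 changes of -1.52, -1.26 and -0.95 did not pass in edgeR (adjusted p 0.971, 0.748 and 0.604) or with the block (0.0516, 0.0601 and 0.0825), and DESeq2 called the one at D4 (adjusted p 0.0403). LAYN, the receptor layilin, had a D10 change of -0.68 that passed only with the block (edgeR adjusted p 0.328, with the block 0.0213). Its slope of -0.069 log2 units per day did not pass in edgeR (adjusted p 0.0916). The slope passed with the block (edgeR adjusted p 0.0111) and in DESeq2 (adjusted p 0.00348), where 4.3% and 3.58% of all genes did. Of the inter-alpha-inhibitor heavy chains that TNFAIP6 can transfer, ITIH3 had 2 to 15 counts per library and a D10 change of -2.41 (edgeR adjusted p 0.334). ITIH5, a related chain named after its values were seen, had -1.08 at D10 (edgeR adjusted p 0.209, with the block 0.0205). At D7 ITIH5 was at -1.53 (edgeR adjusted p 0.307, with the block 0.0167, DESeq2 adjusted p 0.00412).

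For precursor supply, link proteins and CD44 partners, no gene passed at D10 in edgeR, with the block or in DESeq2. GFPT2, which feeds the hexosamine pathway, had the largest D10 change among 7 UDP-sugar genes at 0.39 (SE 0.32). HAPLN3, a link protein that ties versican to hyaluronan, was at -0.64 (SE 0.35) and was the only tested gene of its list. MMP14, a membrane metalloprotease that sheds CD44, had the largest D10 change among 7 tested CD44 linkers and sheddases at 0.53 (SE 0.25, edgeR adjusted p 0.711).

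Finally, the genes whose log2 CPM ran most alike with each member over the 8 libraries were listed, as a description over libraries that share groups, experiments and scaling. For HAS2 these were RGS4 (Pearson r 0.931), ADGRL4 (0.928) and IFT57 (0.927). TNFAIP6 ran closest with FAM131A (0.983), LHFPL2 (0.982) and GLI1 (0.976), over a profile in which D10 of experiment 2 stood far above the other libraries. Over the 7 libraries without it, a setting added after the values were seen, these r values were 0.821, 0.956 and 0.713. For CD44 they were PKNOX2 (0.983), JRK (0.978) and HGSNAT (0.977), and for VCAN NUAK1 (0.978), RC3H1 (0.975) and RERE (0.972). HAS3 ran closest with PTGER4 (0.958), PYGL (0.937) and FSCN2 (0.935), and HYAL2 with RAB11FIP3 (0.972), MISP3 (0.965) and PIGZ (0.962). No member was among the 3 closest of another.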

How the data were processed

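RNA-Seq of poly(A) RNA was analysed from the raw counts per gene that the authors deposited, which are whole numbers. Per the labels, libraries were stranded. The submitters' processing notes name STAR 2.5, DESeq2 and GRCh38, and the counting tool and strand setting are not given in the sources used here. The 8 columns of normalized values were not used. The header of the first D0 column reads DO, and it was taken as D0 replicate 1.

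Genes were filtered with filterByExpr (minimum count 10), which left 13798 of 27696, scaled by TMM and fitted by group over all 8 libraries with edgeR 4.0.16 (glmQLFit and glmQLFTest, R 4.3.3). Adjustment was by Benjamini-Hochberg over all tested genes, with calls at 0.05. Alternatives were DESeq2 1.42.0, its size factors, total counts, no filter, a stricter filter of 10 counts per library, fits to the compared groups alone, a block for the replicate number and leaving out each library. Scripts were tested on simulated data. The replicate numbers pair the libraries, since deviations of same-numbered libraries correlated across genes with r from 0.418 to 0.722 in all 6 pairs of groups and the labels describe 2 independent experiments. Ratios within an experiment carry exact intervals of the 2 counts. Log2 CPM used a prior count of 2. Positions are from GENCODE 29, which holds 99.6% of the identifiers, and promoters from RefSeq (GRCh38.p14).

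The genes, lists and comparisons were chosen with earlier results of these data known. Named genes are the members, the gene of each list with the largest change at D10, and the 3 genes with the highest correlation to each member. ADAMTS1, ADAMTS5, CSGALNACT1, CSGALNACT2, PTX3 and ITIH5 were named after their values were seen.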

Additional observations from a re-analysis of the deposited data

How the results depend on the processing

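With 2 libraries per group, 5 to 49 counts bound what can be seen in the synthases. D10 of experiment 2 carries most of the D10 changes of TNFAIP6 and CD44. Of the values for single genes under the alternatives, 398 kept their direction and their side of the threshold and 25 changed sign, and the cause was not tested. No change of sign involved HAS2 or HAS3. The replicate block changed no call of a member.

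The number of members called, 0 in each comparison of media and for the slope, became 1 (TNFAIP6) at D10 against D0 and D10 against D4 with DESeq2 and with no filter, and 0 to 1 on leaving out single libraries. Genes called at D10 against D0, 40, became 25 with total counts, 390 with DESeq2, 371 with no filter, 20 with at least 10 counts in every library, 688 with the replicate block, 0 with the compared groups only and 0 to 155 without single libraries. At D10 against D4 the count of 1 became 6 with DESeq2 size factors, 157 with DESeq2, 147 with no filter, 352 with the block, 6 with the compared groups only and 0 to 83 without single libraries. At D4 and D7, where it was 0, DESeq2 gave 47 and 117, no filter 21 and 93, and the block 38 and 172. For the slope, 163 became 494 with DESeq2, 593 with the block and 36 to 155 without single libraries. The mean of the 3 days against D0 had 15 calls, and 410 with the block.

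With the block, TNFAIP6 at D4 was -0.0087, VCAN at D7 -0.031 and at D10 against D4 0.092, and HYAL2 at D7 0.0040. With total counts VCAN at D10 against D4 was 0.013. HYAL2 at D7 was 0.0019 with DESeq2 size factors and with DESeq2. The fits without single libraries have no block, so the offset between the experiments enters their ranges. Without single libraries, CD44 ranged from -0.78 to 0.054 at D10 and from -0.55 to 0.30 at D10 against D4. TNFAIP6 ranged from -1.10 to 0.65 at D4 and from -0.67 to 0.22 at D7. VCAN ranged from -0.93 to 0.18 at D4, from -0.61 to 0.55 at D7 and from -0.45 to 0.65 at D10 against D4. HYAL2 ranged from -0.12 to 0.36 at D4, from -0.099 to 0.083 at D7, from -0.35 to 0.26 at D10, from -0.51 to 0.12 at D10 against D4, and from -0.025 to 0.015 for the slope.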
